A study of Mus musculus with 32 samples.

Results

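The comparison of lung at postnatal day 14 with lung at postnatal day 6 rested on 8 of the 32 RNA libraries of a study of C57BL/6 mouse pups. The 4 untreated pups' lungs taken at day 14 were set against the 4 lungs taken at day 6 from pups that had received saline (25 µl into the peritoneum on each of days 1 and 2). Samples were chosen by the age and treatment in the sample labels. The study measured lung RNA after control injections and vehicles, in 8 groups of 4. A further 8 libraries served as a second age comparison that shares no sample with the first: 4 lungs at day 14 after nuclease-free water (10 µl per g on days 1 and 3) and 4 at day 6 after Miglyol, a triglyceride oil (25 µl on days 1 and 2). In all, 20 libraries came from day 14 and 12 from day 6, and the libraries outside the first 16 were used for ranges and for alternative comparisons. The other day 14 groups had daily saline (25 µl per g, days 1 to 13) or 1 of 2 scrambled control antagomirs (10 mg per kg on days 1 and 3), and the last day 6 group had tamoxifen (0.4 mg in Miglyol on days 1 and 2). Day 6 pups were euthanised with pentobarbital and day 14 pups with isoflurane. No group at day 6 was left uninjected. Age, euthanasia agent and, in the first comparison, the early injections therefore change together and cannot be told apart. All lungs were perfused with buffered saline through the heart, homogenised whole and sequenced as stranded libraries of polyadenylated RNA. Pups had been randomised at birth with balanced litters, but the labels do not tie each library to a pup, so the p-values speak only of how far these libraries spread.

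In the mouse, the days between these ages are the period of alveolarisation, when ridges called secondary septa rise from the walls of the saccules that are present at birth and divide them into alveoli. Myofibroblasts at the septal tips lay down elastin, the capillary network grows with the septa, and thin alveolar type 1 cells and surfactant-secreting alveolar type 2 cells line the new surface. Cell proliferation is high in the first week after birth and declines as the septa mature and thin.

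Counts of exon reads were compared between the groups. Each untreated library held between 7918537 and 9460434 exon reads and each saline library between 8006991 and 11292990. Reads in introns made up 12.7% ± 1.95 (SD, n = 4) of gene reads at day 14 and 15.1% ± 0.898 (n = 4) at day 6. Xist RNA was high in 3 of the 4 untreated and 2 of the 4 saline libraries, so the sexes were not balanced. Levels are given as CPM, exon reads scaled to equal library totals with TMM factors. Differences are log2 fold changes of day 14 over day 6, with the adjusted p of edgeR's quasi-likelihood test. The defining markers of lung cells were all well expressed. In CPM, the surfactant gene Sftpc stood at 10425 ± 720.1 against 8581 ± 533 (day 14 against day 6, mean ± SD, n = 4 each) and Sftpb at 1499 ± 82.3 against 1492 ± 122. The type 1 cell gene Ager stood at 1236 ± 74.1 against 926 ± 77.9 and the club cell gene Scgb1a1 at 6078 ± 1225 against 3277 ± 262. The endothelial genes Pecam1 and Cdh5 stood at 771 ± 48.6 against 611 ± 29.5 and 1091 ± 118 against 901 ± 32.1.

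Of 13798 genes tested, 5271 (38.2%) had an adjusted p under 0.05, 2612 of them higher at day 14 (18.9% of the genes tested) and 2659 lower (19.3%). Most of these differences were small: 69.5% of the genes past the threshold differed by less than 1.5-fold. At least 2-fold differences were found for 254 higher and 452 lower genes, and at least 4-fold differences for 39 and 79. The CPM ranges of the 4 and 4 libraries did not overlap in 4813 genes (34.9%). The median log2 fold change over all genes tested was 0.0042. The shares of 18.9% higher and 19.3% lower are the background to the counts of gene lists below. The lists were chosen with earlier results of these data known, so these counts describe the lists and do not test them. Some genes are in several lists and are counted in each. In whole tissue, fewer cells of a type and less RNA per cell cannot be told apart, and this holds for every gene group below.

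Genes of cell division made up the most uniform group. All 38 genes listed for the G2 phase and mitosis were tested and all 38 fell, with a median log2 fold change of -1.91 against 0.0042 over all genes. Of 38 listed for DNA replication, 37 fell, with a median of -1.30, and only Gins4 did not pass the threshold (log2 fold change 0.062). In the 20 day 14 libraries as a whole, every one of the 38 mitosis genes lay below all 12 day 6 libraries, as did 35 of the 38 replication genes, while 4.98% of all genes tested did so. The summed CPM of the mitosis list was 618 to 740 in the untreated libraries and 2462 to 2741 in the saline libraries.

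Among the mitotic genes, Kif2c, a kinesin that depolymerises microtubules at the centromere, had 6.45, 4.502, 3.13 and 4.63 CPM in the untreated libraries at day 14 and 30.2, 28.7, 27.7 and 26.4 CPM in the saline libraries at day 6. The groups were far apart (log2 fold change -2.60, SE 0.14, adjusted p = 4.64e-11). Ccnb1, the cyclin B1 that activates Cdk1 at the entry into mitosis, had 9.87, 9.11, 9.403 and 9.38 CPM at day 14 and 57.9, 51.4, 48.1 and 47.3 at day 6 (log2 fold change -2.44, SE 0.093, adjusted p = 7.69e-13). Reads that match more than 1 place blur the level of a gene, and only 45.1% of the Ccnb1 reads were unique. Prc1, which bundles the microtubules of the central spindle, had 18.9, 16.7, 15.1 and 18.98 CPM at day 14 and 98.6, 81.4, 83.9 and 86.03 at day 6 (log2 fold change -2.33, SE 0.088, adjusted p = 6.77e-13), with 43.1% of reads unique. Cenpe, the kinesin that moves chromosomes to the metaphase plate, had 16.1, 14.7, 13.2 and 14.1 CPM at day 14 and 67.4, 64.9, 74.6 and 76.9 at day 6 (log2 fold change -2.29, SE 0.087, adjusted p = 7.23e-13). Mki67, the gene of the proliferation antigen Ki-67, had 100.1, 89.3, 86.7 and 117 CPM at day 14 and 403, 398, 411 and 416 at day 6 (log2 fold change -2.05, SE 0.080, adjusted p = 1.16e-12). In each of these genes the highest day 14 library was below the lowest day 6 library. The smallest fall of the list was in Cdc25b, a phosphatase that activates cyclin-dependent kinases (log2 fold change -0.72, adjusted p = 1.15e-06). Foxm1, the transcription factor that drives many mitotic genes, had 18.8 ± 1.25 against 70.5 ± 10.3 CPM (log2 fold change -1.91, SE 0.10, adjusted p = 4.64e-11).

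The promoters of these genes are shown because mitotic and replication genes are classically controlled through different short motifs: the cell cycle homology region with CCAAT boxes for the former and E2F sites for the latter. The windows run from 250 bases before to 50 bases after the start of the gene in RefSeq (GRCm38.p6), on the strand of the gene. Capitals mark matches on either strand, which can overlap. The cell cycle homology region was searched as TTTGAA. A second form of the same region, TTCGAA, was also counted. The box bound by nuclear factor Y was searched as CCAAT. The E2F motif was searched as TTTGGCGC, as TTTCCCGC, as TTTGCCGC and as TTTCGCGC. The 4 mitosis and 3 replication genes shown were taken in order of p among those with an entry in the table. They lie at chr7:80294201-80294500 (plus strand, Prc1), chr3:135212313-135212612 (plus strand, Cenpe), chr13:100786437-100786736 (minus strand, Ccnb1), chr7:135716330-135716629 (minus strand, Mki67), chr12:24708004-24708303 (plus strand, Rrm2), chr1:128359656-128359955 (minus strand, Mcm6) and chr17:56303087-56303386 (plus strand, Uhrf1).
Prc1: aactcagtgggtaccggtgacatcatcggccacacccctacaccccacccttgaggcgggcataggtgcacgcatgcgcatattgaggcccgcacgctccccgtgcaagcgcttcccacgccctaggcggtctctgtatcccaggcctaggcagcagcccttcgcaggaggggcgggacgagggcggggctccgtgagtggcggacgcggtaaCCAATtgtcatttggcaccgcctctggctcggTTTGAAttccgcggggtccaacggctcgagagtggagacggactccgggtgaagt
Cenpe: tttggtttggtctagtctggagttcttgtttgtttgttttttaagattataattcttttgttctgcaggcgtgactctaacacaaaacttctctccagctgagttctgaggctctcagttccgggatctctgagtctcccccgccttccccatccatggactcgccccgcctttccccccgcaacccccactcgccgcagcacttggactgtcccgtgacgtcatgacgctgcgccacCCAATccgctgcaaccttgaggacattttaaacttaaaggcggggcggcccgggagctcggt
Ccnb1: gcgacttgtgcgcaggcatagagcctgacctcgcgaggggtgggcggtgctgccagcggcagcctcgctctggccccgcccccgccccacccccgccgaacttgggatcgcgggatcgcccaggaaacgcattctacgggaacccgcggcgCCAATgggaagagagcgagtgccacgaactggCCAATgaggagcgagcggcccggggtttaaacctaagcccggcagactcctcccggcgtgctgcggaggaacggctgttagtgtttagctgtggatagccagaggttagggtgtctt
Mki67: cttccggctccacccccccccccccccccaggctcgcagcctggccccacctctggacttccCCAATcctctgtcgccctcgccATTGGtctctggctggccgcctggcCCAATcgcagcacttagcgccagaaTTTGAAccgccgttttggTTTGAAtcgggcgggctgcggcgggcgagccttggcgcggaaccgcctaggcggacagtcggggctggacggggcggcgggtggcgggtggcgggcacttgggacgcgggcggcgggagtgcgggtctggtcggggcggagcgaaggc
Rrm2: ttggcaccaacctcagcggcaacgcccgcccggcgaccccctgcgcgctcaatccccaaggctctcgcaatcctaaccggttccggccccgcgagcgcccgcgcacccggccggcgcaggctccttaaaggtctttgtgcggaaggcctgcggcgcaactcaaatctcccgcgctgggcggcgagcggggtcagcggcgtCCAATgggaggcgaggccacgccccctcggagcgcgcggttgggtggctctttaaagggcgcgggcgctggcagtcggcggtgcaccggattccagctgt
Mcm6: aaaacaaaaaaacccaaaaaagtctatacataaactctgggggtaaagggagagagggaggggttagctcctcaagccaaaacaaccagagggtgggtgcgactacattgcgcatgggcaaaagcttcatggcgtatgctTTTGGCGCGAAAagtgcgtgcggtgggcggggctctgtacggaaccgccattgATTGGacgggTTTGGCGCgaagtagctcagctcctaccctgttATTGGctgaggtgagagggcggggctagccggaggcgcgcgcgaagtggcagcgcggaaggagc
Uhrf1: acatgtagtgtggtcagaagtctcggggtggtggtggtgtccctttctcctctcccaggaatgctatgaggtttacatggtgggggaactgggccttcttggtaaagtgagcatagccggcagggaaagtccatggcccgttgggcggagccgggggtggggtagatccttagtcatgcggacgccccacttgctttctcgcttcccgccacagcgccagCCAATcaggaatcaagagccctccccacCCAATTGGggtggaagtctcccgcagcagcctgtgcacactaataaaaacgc

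The cell cycle homology region was matched once in the Prc1 window and in 2 places in that of Mki67, and not in those of Cenpe and Ccnb1, which held 1 and 2 CCAAT boxes. Mcm6 was the only one of the 7 with E2F matches (3). Over the lists, 24 of the 31 mitosis promoters in the table (77.4%) held a cell cycle homology region match, against 21.2% of 33 replication promoters and 16.4% of the promoters of 10992 genes tested. CCAAT boxes were in 74.2%, 57.6% and 42.5%, and E2F matches in 3.23%, 39.4% and 4.51%. Both the cell cycle homology region and a CCAAT box were found in 67.7% of the mitosis promoters and 7.99% of all. A match is a run of letters and not a measured site, and a window without one says only that these letters were not found in it.

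**Figure D1:**
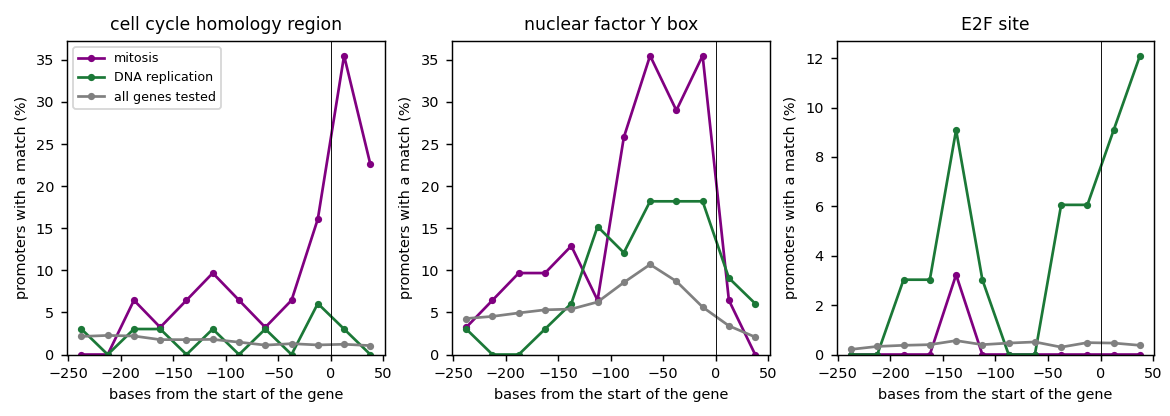
Share of genes with a match to each motif in their promoter (vertical axis, percent) in bins of 25 bases by distance from the start of the gene (horizontal axis, bases), for the mitosis list (31 genes), the replication list and all genes tested. In the mitosis promoters the cell cycle homology region peaks at 35.5% in the bin that begins at the start, and the CCAAT box (drawn as the nuclear factor Y box) reaches 35.5% in 2 of the 4 bins before it.

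Among the replication genes, Rrm2, the ribonucleotide reductase subunit that limits the supply of deoxynucleotides, had 23.3, 21.4, 19.1 and 21.8 CPM at day 14 and 78.8, 83.96, 74.1 and 77.5 at day 6 (log2 fold change -1.88, SE 0.076, adjusted p = 1.41e-12). Mcm6, a subunit of the replicative helicase, had 53.3, 47.2, 50.04 and 53.9 CPM at day 14 and 117, 119.9, 113 and 122 at day 6 (log2 fold change -1.21, SE 0.062, adjusted p = 2.74e-11). Uhrf1, which carries DNA methylation through replication, had 19.5, 14.9, 14.5 and 14.1 CPM at day 14 and 74.2, 72.6, 58.4 and 62.2 at day 6 (log2 fold change -2.09, SE 0.11, adjusted p = 3.38e-11). None of the ranges overlapped, and the helicase gene differed least of the 3. Ccne2, a cyclin of the G1 to S transition, fell by 2.25 on the log2 scale, and Pcna, the sliding clamp of the polymerases, by 0.79, with 74.4% and 47.5% of reads unique. Of the 15 tested genes that restrain the cycle, 10 rose and 2 fell (median 0.25). Gadd45b, a growth arrest gene, had 48.97, 52.6, 48.8 and 44.1 CPM at day 14 and 29.9, 31.2, 26.9 and 22.5 at day 6 (log2 fold change 0.82, SE 0.095, adjusted p = 1.48e-06), without overlap. Cdkn1a, the p21 inhibitor, did not pass (log2 fold change 0.14, adjusted p = 0.186), and Cdkn1c, the imprinted p57 inhibitor, was among the 2 that fell (log2 fold change -0.29, adjusted p = 0.00546).

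**Figure D2:**
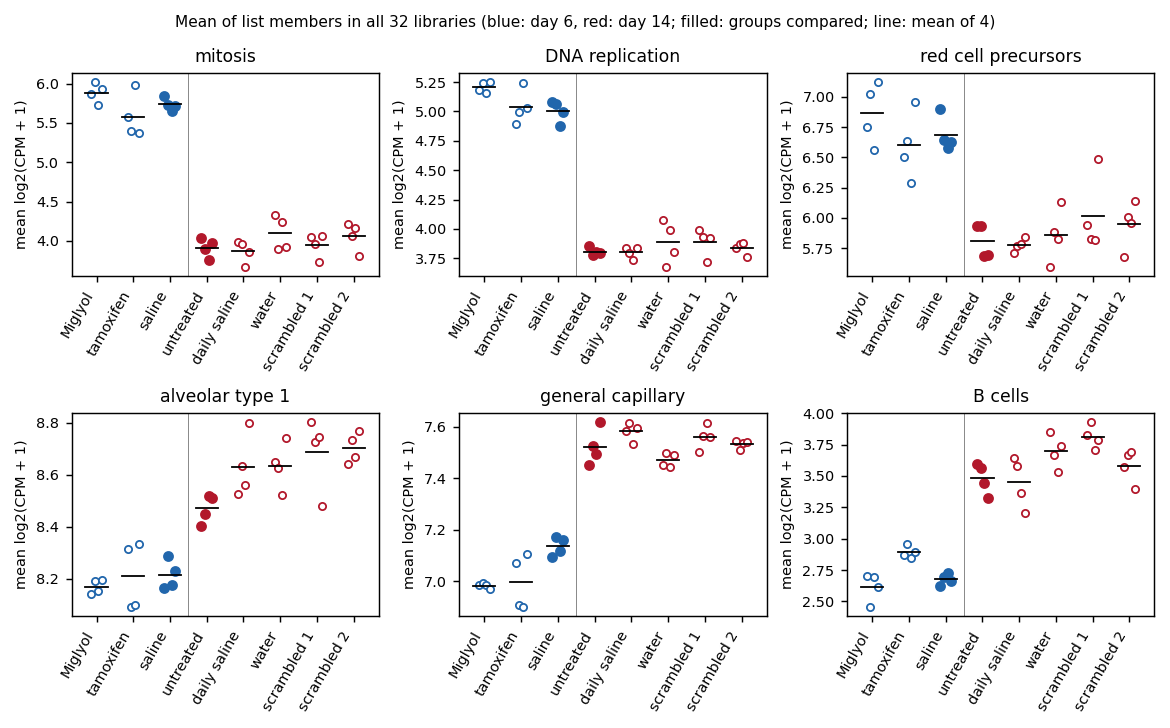
Mean log2(CPM + 1) of the members of 6 gene lists in each of the 32 libraries (vertical axis) by group (horizontal axis), with filled points for the untreated and day 6 saline groups and a line at each group's mean. The mitosis means of the untreated libraries lie between 3.76 and 4.04 and those of the saline libraries between 5.65 and 5.85. Those of the other day 14 libraries lie between 3.67 and 4.33 and of the other day 6 libraries between 5.375 and 6.01. In the red cell list the highest day 14 library (scrambled 1, 6.48) lies above the lowest day 6 library (tamoxifen, 6.29).

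Imprinted genes of fetal and placental growth were mostly lower at day 14. Of 19 tested, 13 fell and 2 rose, with a median of -0.65. Dlk1, a membrane protein related to Notch ligands that holds precursor cells undifferentiated, had 6.45, 3.22, 4.65 and 2.03 CPM at day 14 and 61.8, 63.7, 63.6 and 59.9 at day 6 (log2 fold change -3.94, SE 0.18, adjusted p = 4.55e-10). It headed the ranking of falls, and its groups were far apart. Mest, a hydrolase of fetal mesoderm, had 126, 173, 123 and 145 CPM at day 14 and 483, 449, 403 and 451 at day 6 (log2 fold change -1.65, SE 0.095, adjusted p = 1.77e-09, 67.2% of reads unique). Plagl1, a zinc finger factor that regulates other imprinted genes, had 143, 144, 137 and 162 CPM at day 14 and 321, 282, 308 and 299.6 at day 6 (log2 fold change -1.05, SE 0.065, adjusted p = 3.48e-10). The groups were apart in each case. Igf2, the fetal insulin-like growth factor, was looked at beside the genes chosen by the naming rule, after its values were seen, and had 30.5, 22.6, 20.97 and 15.9 CPM at day 14 and 89.96, 88.04, 80.3 and 79.9 at day 6 (log2 fold change -1.92, SE 0.14, adjusted p = 2.63e-07).

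Noncoding RNAs at the same imprinted regions have no exon reads in the files and were read from all reads in the gene. H19, which neighbours Igf2, had 59.1, 50.5, 48.2 and 39.3 CPM at day 14 and 278, 266, 218 and 268 at day 6 (log2 fold change -2.38, SE 0.12, adjusted p = 2.12e-08). Meg3, expressed from the other parental allele of the Dlk1 region, had 171, 179, 183 and 216 CPM at day 14 and 483, 452, 541 and 429 at day 6 (log2 fold change -1.34, SE 0.081, adjusted p = 1.54e-09). Rian and Mirg lie further along that region and were chosen after their values were seen. Rian had a mean of 51.1 ± 3.92 at day 14 and 112 ± 6.51 at day 6 CPM and Mirg of 2.96 ± 0.434 at day 14 and 8.19 ± 0.999 at day 6 CPM (log2 fold changes -1.13 and -1.45). In the files' coordinates H19 lies at chr7:142575532-142578146, Meg3 at chr12:109540996-109571729, Rian at chr12:109603945-109661716 and Mirg at chr12:109734981-109749458. All 4 RNAs fell with the protein-coding genes beside them, without overlap of the ranges of the untreated and saline libraries. Over all 32 libraries H19 overlapped, at 32.9 to 239.9 CPM at day 14 and 159.8 to 396.7 at day 6, while Meg3, Rian and Mirg did not. Airn, an antisense RNA within Igf2r, fell too (log2 fold change -0.69, adjusted p = 0.00164), as did Igf2r, the receptor that clears Igf2 (log2 fold change -0.84, adjusted p = 3.96e-09). The strand setting of the counts is unknown here, so reads of these 2 overlapping genes cannot be told apart. The intronic part of the reads cannot be separated from the exonic part in this readout.

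Genes of fetal RNA handling and growth went the same way, with 8 of 13 lower and none higher. Igf2bp3, a fetal RNA-binding protein, had 1.27, 0.965, 2.92 and 1.13 CPM at day 14 and 8.18, 12.6, 10.1 and 11.3 at day 6 (log2 fold change -2.73, SE 0.26, adjusted p = 1.64e-07, 54.2% of reads unique). Hmga2, a fetal chromatin protein, had 1.14, 1.39, 1.84 and 1.92 CPM at day 14 and 5.08, 4.95, 4.92 and 5.64 at day 6 (log2 fold change -1.70, SE 0.22, adjusted p = 5.13e-06). Neither exceeded 2.92 CPM at day 14. Sox12, a transcription factor of neural and mesenchymal precursors, also fell (log2 fold change -0.77, adjusted p = 8.82e-07). In the insulin-like growth factor pathway 7 of 17 rose and 6 fell. The binding proteins Igfbp3, Igfbp5 and Igfbp7, which bind the growth factors outside the cell, were higher (log2 fold change 1.20, adjusted p = 9.66e-08 for Igfbp3, 1.00 and 1.53e-10 for Igfbp5, and 0.85 and 2.96e-08 for Igfbp7), and Igfbp5 had 765, 763, 778 and 734 CPM at day 14 and 351, 383, 385 and 395 at day 6. Of 76 ribosomal protein genes, 3 rose and 5 fell. Without untreated replicate 4 these counts were 19 and 4. Over all genes, 2900 rose and 2852 fell without that library, in place of 2612 and 2659.

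**Figure D3:**
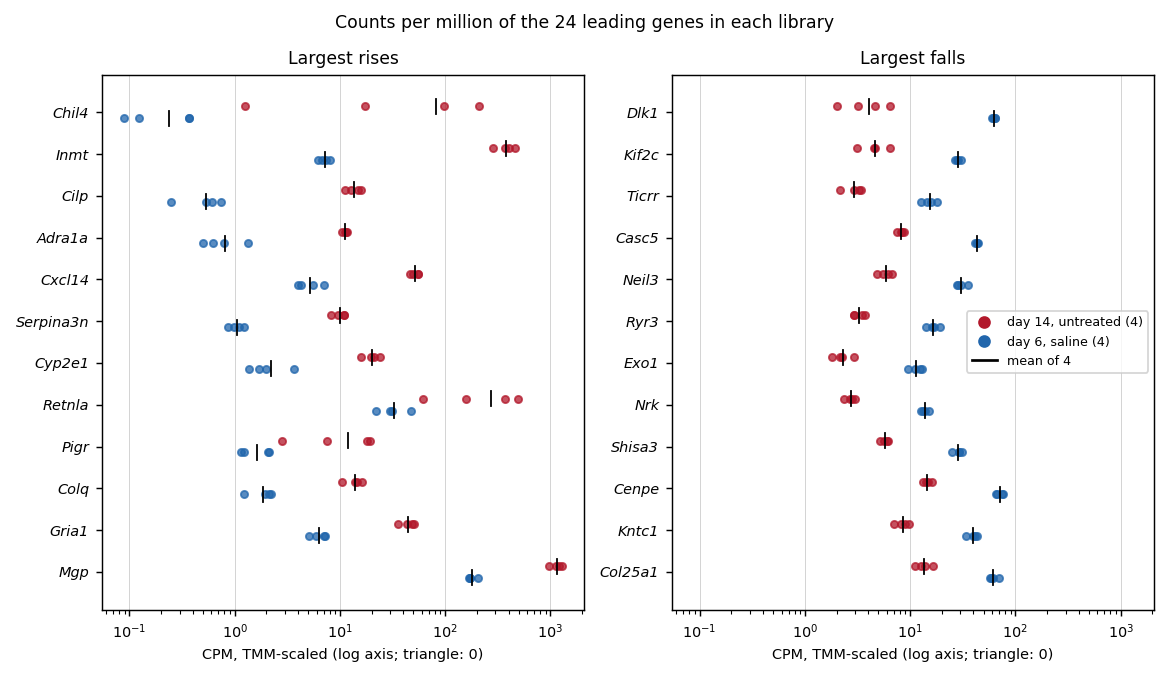
CPM of the 12 genes with the largest rises and the 12 with the largest falls in each library (horizontal log axis, CPM), red for the 4 untreated libraries at day 14 and blue for the 4 saline libraries at day 6, with a black line at each mean. Chil4, Retnla and Pigr are spread widely at day 14, while Inmt stands at 284 to 461 CPM against 6.25 to 8.11.

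Among the largest rises, Inmt, an enzyme that methylates indoleamines and marks lung fibroblasts, had 373, 461, 402 and 284 CPM at day 14 and 6.82, 7.42, 8.11 and 6.25 at day 6 (log2 fold change 5.74, SE 0.17, adjusted p = 2.04e-10). Mgp, the matrix Gla protein that inhibits calcification, had 1124, 1296, 1216 and 973 CPM at day 14 and 169, 206, 171 and 172 at day 6 (log2 fold change 2.68, SE 0.091, adjusted p = 7.69e-13). Cxcl14, a chemokine, had 49.98, 55.6, 55.6 and 46.4 CPM at day 14 and 7.06, 5.56, 4.303 and 3.96 at day 6 (log2 fold change 3.33, SE 0.13, adjusted p = 1.16e-12). These 3 were well measured, and their groups lay far apart. Cilp, a matrix protein first described in cartilage, had 12.7, 15.8, 11.2 and 14.8 CPM at day 14 and 0.248, 0.742, 0.615 and 0.528 at day 6 (log2 fold change 4.64, SE 0.24, adjusted p = 2.27e-11). Adra1a, the alpha 1A adrenergic receptor, rose from 0.815 ± 0.379 to 11.2 ± 0.473 CPM, Serpina3n, a protease inhibitor, from 1.05 ± 0.157 to 9.93 ± 1.301, and Colq, the collagen tail of acetylcholinesterase, from 1.87 ± 0.439 to 13.8 ± 2.38 (log2 fold changes 3.76, 3.21 and 2.87). Gria1, a glutamate receptor subunit, had 35.6, 50.9, 43.2 and 48.5 CPM at day 14 and 7.06, 5.07, 7.25 and 5.99 at day 6 (log2 fold change 2.82, SE 0.13, adjusted p = 1.24e-11). The macrophage lectin Chil3 had 450.2, 197, 315 and 187 CPM at day 14 and 5.45, 6.55, 4.18 and 5.28 at day 6 (log2 fold change 5.74, SE 0.45, adjusted p = 0.000108). Chil3 and Chil4 are near-identical copies, 88.9% and 90.8% of their reads were unique, and their levels are uncertain.

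Chil4, Retnla and Pigr passed the threshold with a wide spread. Chil4, a chitinase-like lectin of the airway, had 96.9, 17.4, 210.4 and 1.24 CPM at day 14 and 0.372, 0.124, 0.369 and 0.0881 at day 6 (log2 fold change 8.42, SE 2.35, adjusted p = 0.0323). Retnla, a secreted protein of airway epithelium and macrophages, had 496, 157, 366 and 61.5 CPM at day 14 and 31.4, 46.9, 29.6 and 21.8 at day 6 (log2 fold change 3.07, SE 0.73, adjusted p = 0.0176). Pigr, which carries immunoglobulin A across epithelium, had 19.5, 7.61, 18.2 and 2.83 CPM at day 14 and 1.24, 2.102, 2.09 and 1.15 at day 6 (log2 fold change 2.88, SE 0.74, adjusted p = 0.0224). Untreated replicate 4 was the lowest day 14 library in all 3, and replicates 1 and 3 were the highest. The same order of libraries was seen in airway genes: Muc5b, an airway mucin, had 72.4, 34.3, 67.7 and 4.86 CPM at day 14 and 4.59, 6.43, 10.1 and 2.73 at day 6 (log2 fold change 2.95, SE 0.89, adjusted p = 0.0418). Reg3g, a secreted lectin, had 106, 21.01, 53.5 and 0.565 CPM at day 14 and 2.23, 2.97, 4.55 and 0.793 at day 6 and did not pass (log2 fold change 4.15, adjusted p = 0.0557). Foxj1, the master regulator of cilia, had 42.9, 31.6, 39.7 and 16.3 CPM at day 14 and 29.4, 34.1, 32.1 and 21.8 at day 6 (log2 fold change 0.16, adjusted p = 0.729). The summed CPM of the 22 club cell genes was 6683 to 10937 at day 14 and 5073 to 5906 at day 6, and that of the ciliated cell genes 431 to 626 and 449 to 509. Untreated replicate 4 had the lowest sum of both lists among the untreated libraries, and without it 18 in place of 11 of the 22 club cell genes rose. Over all genes, 2900 in place of 2612 rose without it. Whether differing amounts of airway in the samples take part in these values was not tested.

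The 12 largest falls included Kif2c, Cenpe and Dlk1 (above), Casc5 and Kntc1, which act at the kinetochore, Ticrr, which starts replication, Exo1, a nuclease, and Neil3, a glycosylase of DNA repair. Casc5 had 8.35, 8.25, 7.46 and 8.81 CPM at day 14 and 42.9, 41.2, 44.4 and 43.2 at day 6 (log2 fold change -2.38, SE 0.088, adjusted p = 6.59e-13). Neil3 had 6.201, 5.57, 4.86 and 6.78 CPM at day 14 and 35.3, 27.95, 30.6 and 28.4 at day 6 (log2 fold change -2.38, SE 0.12, adjusted p = 1.88e-11). Ryr3, a calcium release channel, fell from 16.6 ± 2.19 to 3.27 ± 0.411 CPM, Nrk, a kinase known from the placenta, from 13.7 ± 1.04 to 2.72 ± 0.261, and Shisa3, an inhibitor of Wnt and FGF receptors, from 28.7 ± 2.59 to 5.78 ± 0.462 (log2 fold changes -2.33, -2.33 and -2.31). Col25a1, a membrane-bound collagen, had 16.6, 13.7, 11.2 and 12.8 CPM at day 14 and 56.9, 58.5, 61.1 and 70.2 at day 6 (log2 fold change -2.19, SE 0.10, adjusted p = 1.14e-11).

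**Figure D4:**
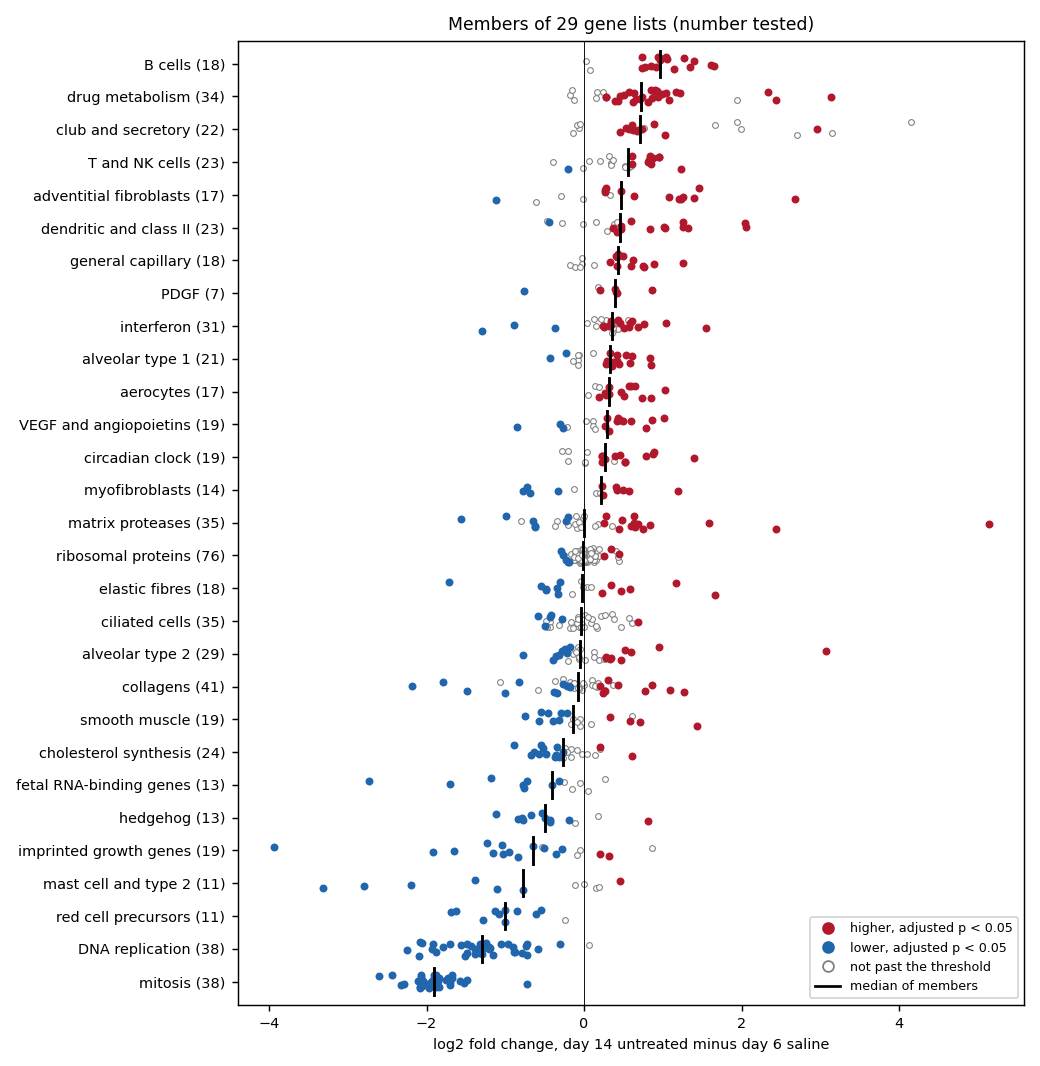
Log2 fold change of each tested member (horizontal axis, day 14 untreated over day 6 saline) in 29 gene lists (vertical axis, ordered by median), filled red or blue where the adjusted p is under 0.05, open otherwise, with a bar at the list's median. The mitosis, replication and red cell lists lie to the left of 0 almost throughout, and the B cell and drug metabolism lists to its right.

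Elastic fibre genes moved in both directions. Of 18 tested, 6 rose and 7 fell. Eln, which encodes elastin, had 9999, 11487, 10806 and 11252 CPM at day 14 and 3684, 3859, 3083 and 3155 at day 6 (log2 fold change 1.66, SE 0.082, adjusted p = 1.58e-11, a 3.16-fold rise), with the 4 day 14 libraries above all 4 at day 6. Mfap5 and Mfap4, microfibril-associated proteins, rose as well (log2 fold changes 1.16 and 0.58). Fbn2, the fibrillin of fetal microfibrils, had 28.6, 26.5, 27.6 and 33.7 CPM at day 14 and 95.04, 94.2, 83.9 and 107 at day 6 (log2 fold change -1.71, SE 0.087, adjusted p = 2.27e-11), whereas Fbn1 did not pass (log2 fold change -0.15, adjusted p = 0.0965). Fbln5, which tethers elastin to cells, fell (log2 fold change -0.49, adjusted p = 3.19e-06). Of 25 genes of matrix crosslinking and processing 10 rose and 3 fell. Among them Pcolce2, an enhancer of procollagen processing, had 209, 227, 223 and 194 CPM at day 14 and 78.6, 79.9, 74.5 and 78.3 at day 6 (log2 fold change 1.46, SE 0.064, adjusted p = 3.77e-12), Lox and Loxl1, which crosslink elastin and collagen, rose by 0.46 and 0.41 on the log2 scale, and Tgm2, a transglutaminase, by 0.95.

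Of 41 collagens 9 rose and 11 fell, beside 18.9% and 19.3% of all genes. The main fibrillar genes moved little: Col3a1 rose (log2 fold change 0.44, adjusted p = 7.80e-05) and Col1a1 did not pass (log2 fold change -0.26, adjusted p = 0.119). Besides Col25a1, the falls included Col6a4 (log2 fold change -1.79, adjusted p = 9.88e-10) and the cartilage collagen Col11a1 (log2 fold change -1.01, adjusted p = 0.0432). Of 35 proteoglycans and matrix glycoproteins, 13 rose and 13 fell. Vcan, the large proteoglycan versican of young and growing tissue, had 77.3, 75.03, 77.8 and 86.1 CPM at day 14 and 325, 310.4, 339 and 367 at day 6 (log2 fold change -2.08, SE 0.069, adjusted p = 1.43e-13). In the opposite direction, Prelp, a small leucine-rich proteoglycan, had 134, 150.3, 155 and 173 CPM at day 14 and 62.8, 57.3, 57.2 and 57.8 at day 6 (log2 fold change 1.38, SE 0.074, adjusted p = 4.31e-11). Its relatives Ogn (log2 fold change 1.53, adjusted p = 3.25e-11) and Aspn (log2 fold change 1.19, adjusted p = 7.16e-10) rose, with 21.8% and 26.98% of their reads unique. Among proteases and their inhibitors 14 of 35 rose and 7 fell. Mmp3, stromelysin 1, had 6.71, 9.004, 8.86 and 4.86 CPM at day 14 and 0.248, 0.247, 0 and 0.264 at day 6 (log2 fold change 5.14, SE 0.38, adjusted p = 3.94e-09), so the day 6 level was at the limit of detection. Adamtsl2, a binding partner of fibrillin, had 124, 171, 139 and 181 CPM at day 14 and 24.8, 34.3, 26.6 and 28 at day 6 (log2 fold change 2.44, SE 0.13, adjusted p = 4.58e-08). Adam12, a protease of growing mesenchyme, had 50.4, 51.1, 48.1 and 56.3 CPM at day 14 and 161, 142, 143 and 165 at day 6 (log2 fold change -1.57, SE 0.071, adjusted p = 5.10e-12). Of 29 laminin and integrin genes, 9 rose and 10 fell, with Itga8, an integrin of lung mesenchyme, up (log2 fold change 0.71, adjusted p = 2.42e-08) and Lama5, a laminin chain, down (log2 fold change -0.65, adjusted p = 5.62e-07).

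Genes of mesenchymal cells were listed by cell type. Of 17 adventitial fibroblast genes 12 rose and 1 fell (median 0.47), led by Mgp and Pcolce2 (above) and Tnxb, tenascin X (log2 fold change 1.20, adjusted p = 1.70e-09, 87.4% of reads unique). Of 18 alveolar fibroblast genes 8 rose and 2 fell. Npnt, the nephronectin that binds integrin alpha 8, had 1832, 1908, 1940 and 2049 CPM at day 14 and 1126, 1181, 1147 and 1179 at day 6 (log2 fold change 0.74, SE 0.060, adjusted p = 1.42e-08). Wnt2, a Wnt ligand of lung mesenchyme, had 38.7, 38.4, 42.5 and 30.9 CPM at day 14 and 84.01, 84.95, 80.7 and 88.3 at day 6 (log2 fold change -1.17, SE 0.081, adjusted p = 1.39e-09). The groups did not overlap in either gene, and the directions were opposite. Of 14 genes listed for myofibroblasts 7 rose and 4 fell, among them Pdgfra, the receptor that marks the septal myofibroblast lineage (log2 fold change 0.40, adjusted p = 0.00150), and, falling, Hhip, an inhibitor of hedgehog ligands (log2 fold change -0.78, adjusted p = 4.23e-08), and Tgfbi, a matrix protein induced by TGF-beta (log2 fold change -0.73, adjusted p = 4.23e-08). Of 19 smooth muscle genes 4 rose and 8 fell, including Myh11, the smooth muscle myosin (log2 fold change -0.55, adjusted p = 4.66e-06), its activator Myocd (log2 fold change -0.75, adjusted p = 2.77e-05) and Acta2, smooth muscle actin (log2 fold change -0.45, adjusted p = 0.000808). Of 17 pericyte genes 7 rose and 3 fell, where Art3, a relative of the ADP-ribosyltransferases, had 28.5, 24.6, 28.4 and 24.9 CPM at day 14 and 11.3, 10.5, 14.5 and 12.2 at day 6 (log2 fold change 1.13, SE 0.11, adjusted p = 9.07e-08). The 3 that fell were Rgs5, a regulator of G protein signalling (log2 fold change -0.58, adjusted p = 0.000281), Cspg4, the proteoglycan NG2 (log2 fold change -0.31, adjusted p = 0.0102), and Notch3, a Notch receptor of mural cells (log2 fold change -0.24, adjusted p = 0.0369, 67.4% of reads unique). In the second comparison Rgs5 had a log2 fold change of 0.10 (interaction adjusted p = 0.0161). The receptor Pdgfrb (log2 fold change 0.39, adjusted p = 0.000131) and the ligand Pdgfd (log2 fold change 0.87, adjusted p = 1.01e-07) were among 5 of 7 platelet-derived growth factor genes that rose.

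Alveolar type 1 cell genes were higher at day 14. Of 21 tested 13 rose and 2 fell (median 0.33). Hopx, a transcriptional cofactor of type 1 cells, had 345, 369.7, 373 and 334 CPM at day 14 and 205, 207, 202 and 182 at day 6 (log2 fold change 0.84, SE 0.063, adjusted p = 4.40e-09). Clic5, a chloride channel protein, had 667, 674, 711 and 716 CPM at day 14 and 439.9, 496, 482 and 497 at day 6 (log2 fold change 0.53, SE 0.061, adjusted p = 1.29e-06), and Pdpn, podoplanin, also rose (log2 fold change 0.33, adjusted p = 0.000815). The groups were apart in each. Type 2 cell genes were divided, with 9 of 29 higher and 8 lower. Sftpc rose slightly (log2 fold change 0.28, adjusted p = 0.00483), Sftpb did not pass (log2 fold change 0.0072, adjusted p = 0.946), and Abca3, the lipid transporter of lamellar bodies, was slightly lower (log2 fold change -0.22, adjusted p = 0.0422, 78.7% of reads unique). With the Miglyol libraries as the day 6 group the log2 fold changes of Sftpc and Abca3 were -0.051 and 0.071, past the threshold in neither. Lyz2, the lysozyme of type 2 cells and macrophages, rose (log2 fold change 0.52, adjusted p = 0.000120). Of 22 club and secretory cell genes 11 rose and none fell (median 0.70). Cbr2, a carbonyl reductase, had 1149, 1067, 1139 and 877 CPM at day 14 and 677, 722, 631 and 613 at day 6 (log2 fold change 0.68, SE 0.081, adjusted p = 2.88e-06). Scgb1a1 had 7091, 6233, 6671 and 4317 CPM at day 14 and 3364, 3067, 3610 and 3069 at day 6 (log2 fold change 0.89, SE 0.13, adjusted p = 0.000198). Of 35 ciliated cell genes 1 rose and 5 fell, and without untreated replicate 4 these counts were 5 and 3. Of 37 lung transcription factors 6 rose and 13 fell (10 and 13 without untreated replicate 4), among the latter Foxm1 (above), Meox2, a mesenchymal homeobox factor (log2 fold change -0.85, adjusted p = 3.40e-09), and Nkx2-1, the factor that specifies lung epithelium (log2 fold change -0.25, adjusted p = 0.00652).

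In the capillaries no tested marker fell, though 1 general capillary gene did without untreated replicate 4. Of 17 genes of aerocytes, the large capillary cells that face type 1 cells, 13 rose (median 0.32), and of 18 general capillary genes 12 rose (median 0.42). Car4, the carbonic anhydrase of aerocytes, had 123, 123, 120.2 and 132 CPM at day 14 and 59.9, 65.8, 57.3 and 61.1 at day 6 (log2 fold change 1.03, SE 0.062, adjusted p = 2.18e-10). Gpihbp1, which holds lipoprotein lipase on capillaries, had 99.3, 110.4, 106 and 84.4 CPM at day 14 and 55.6, 55.8, 55.7 and 49.3 at day 6 (log2 fold change 0.89, SE 0.079, adjusted p = 4.47e-08). Sema3c, a secreted guidance protein, had 629, 689, 703 and 824 CPM at day 14 and 252, 299.9, 301 and 333 at day 6 (log2 fold change 1.26, SE 0.089, adjusted p = 7.80e-09). No range overlapped. In contrast, large vessel genes were split (6 of 19 higher, 7 lower), and of 11 lymphatic genes 1 rose and 4 fell, with Prox1, the lymphatic master regulator, among the falls (log2 fold change -0.62, adjusted p = 0.000908). Of 19 genes of VEGF, angiopoietin and apelin signalling 11 rose and 3 fell. Among those that rose, Apln, Nrp1, Aplnr and Tek were already counted in the capillary lists above. Vegfa itself did not pass (log2 fold change 0.12, adjusted p = 0.238), nor did its receptor Kdr (log2 fold change 0.14, adjusted p = 0.0961), while Flt1, the decoy receptor, rose (log2 fold change 0.32, adjusted p = 0.0185), as did Epas1, the hypoxia-inducible factor of endothelium (log2 fold change 0.46, adjusted p = 1.05e-05). Nrp2, a coreceptor of lymphatic growth, fell (log2 fold change -0.85, adjusted p = 1.36e-08).

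Hedgehog signalling genes were mostly lower: 10 of 13 fell and 1 rose (median -0.49). In the second comparison 6 of 13 fell and 1 rose (median -0.20). The ligand Shh, made by epithelium, had 22.8, 20.3, 21.8 and 23.5 CPM at day 14 and 38.5, 40.7, 39.2 and 40.1 at day 6 (log2 fold change -0.84, SE 0.078, adjusted p = 7.60e-08). Gli1, a transcription factor and a target of the pathway, had 19.1, 26.9, 23.4 and 27.9 CPM at day 14 and 60.1, 52.4, 52.6 and 46.6 at day 6 (log2 fold change -1.11, SE 0.11, adjusted p = 1.97e-07), and the receptor Ptch1, also a target, fell by 0.49 on the log2 scale. The ligand, the targets and Smo, the signal transducer (log2 fold change -0.53, adjusted p = 3.33e-06, 86.98% of reads unique), all fell, and Gas1, a coreceptor, was the one that rose (log2 fold change 0.81, adjusted p = 1.01e-05). Of 33 Wnt genes 6 rose and 8 fell, near the shares of all genes. Besides Wnt2 the Wnt amplifier Rspo2 fell (log2 fold change -1.19, adjusted p = 3.09e-07), while Wnt4 (log2 fold change 1.00, adjusted p = 2.23e-06) and Wnt11 (log2 fold change 0.84, adjusted p = 4.11e-07) rose. Of 20 FGF genes 5 rose and 6 fell. Fgf10, the mesenchymal ligand of airway branching, had 33.03, 30.98, 31.1 and 30.5 CPM at day 14 and 52.9, 47.6, 52.4 and 54.95 at day 6 (log2 fold change -0.73, SE 0.073, adjusted p = 2.36e-07). Fgf7, its close relative, had 20.5, 21.6, 22.1 and 19.2 CPM at day 14 and 8.55, 9.398, 11.1 and 9.598 at day 6 (log2 fold change 1.11, SE 0.11, adjusted p = 1.12e-07, 18.3% of reads unique). Of 23 BMP genes 6 rose and 8 fell, of 25 TGF-beta genes 8 rose and 4 fell, and of 16 Notch genes 5 rose and 6 fell, where the target Hey1 rose (log2 fold change 0.65, adjusted p = 5.72e-07) and the ligand Jag1 fell (log2 fold change -0.31, adjusted p = 0.00101, 78.2% of reads unique).

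In retinoid metabolism, known to act on septation, 7 of 20 genes rose and 3 fell, and without untreated replicate 4 these counts were 11 and 3. Crabp1, a binding protein of retinoic acid, had 32.1, 32.3, 36.3 and 33.5 CPM at day 14 and 5.58, 6.43, 4.55 and 5.46 at day 6 (log2 fold change 2.61, SE 0.11, adjusted p = 1.48e-12). Aldh1a1, which makes retinoic acid, had 383, 288, 372 and 284 CPM at day 14 and 152, 146, 169 and 159.6 at day 6 (log2 fold change 1.08, SE 0.095, adjusted p = 3.21e-07). Adh1, an alcohol dehydrogenase that can oxidise retinol, had 382, 381, 389 and 318 CPM at day 14 and 722, 670.1, 603 and 644 at day 6 (log2 fold change -0.85, SE 0.073, adjusted p = 3.40e-08). Cyp26b1, which degrades retinoic acid, rose (log2 fold change 1.35, adjusted p = 0.00491). Its age difference was smaller in the second comparison (second minus first -1.15 on the log2 scale, interaction adjusted p under 0.05). The groups did not overlap for the first 3.

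Genes of lymphocytes and antigen presentation were higher at day 14. Of 18 B cell genes 16 rose and none fell (median 0.96), and all 20 day 14 libraries lay above all 12 day 6 libraries for 8 of them, against 4.82% of all genes tested. Cd79a, a subunit of the B cell receptor, had 34.9, 35.2, 31.8 and 24.3 CPM at day 14 and 11.2, 11.6, 12.9 and 12.3 at day 6 (log2 fold change 1.39, SE 0.12, adjusted p = 1.76e-08, 89.3% of reads unique). The immunoglobulin records Ighm and Igkc, which have no exon reads and were read from all reads in the gene, also rose (log2 fold changes 0.71 and 1.14, the former with 66.6, 56.6, 52.9 and 45.4 CPM at day 14 and 35.1, 36.1, 33.9 and 30.7 at day 6). Of 23 T and natural killer cell genes 10 rose and 1 fell, among them Cd2, an adhesion receptor (log2 fold change 1.23, adjusted p = 5.67e-05), while Cd3e, a chain of the T cell receptor complex, did not pass (log2 fold change 0.55, adjusted p = 0.125). Of 23 dendritic cell and class II genes 13 rose and 1 fell. H2-Ab1, a class II chain, had 113, 108, 112 and 90.7 CPM at day 14 and 42.01, 50.6, 44.01 and 41.3 at day 6 (log2 fold change 1.25, SE 0.080, adjusted p = 5.13e-10), and H2-Aa rose too (log2 fold change 1.02, adjusted p = 1.55e-09). Of 19 class I genes 11 rose and none fell, and of 31 interferon-induced genes 15 rose and 3 fell, with Ifit3 higher (log2 fold change 1.55, adjusted p = 2.85e-06, 61.3% of reads unique) and Rsad2, known as viperin, lower (log2 fold change -1.30, adjusted p = 1.13e-06).

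Mast cell proteases fell. Mcpt4, a chymase of connective tissue mast cells, had 0.886, 0.322, 0.5404 and 0.565 CPM at day 14 and 5.58, 5.07, 6.39 and 5.99 at day 6 (log2 fold change -3.31, SE 0.27, adjusted p = 1.36e-08). Tpsb2, a tryptase, had 1.52, 0.107, 0.865 and 1.02 CPM at day 14 and 6.44, 7.05, 4.55 and 5.9 at day 6 (log2 fold change -2.79, SE 0.33, adjusted p = 3.35e-06). Cma1, a further chymase, had 2.28, 1.61, 1.51 and 1.47 CPM at day 14 and 6.07, 9.27, 7.25 and 8.72 at day 6 (log2 fold change -2.20, SE 0.21, adjusted p = 1.34e-07). All 12 day 14 values were below the lowest day 6 value of their gene, and day 14 levels were at or under 2.28 CPM. With Cpa3, the mast cell carboxypeptidase (log2 fold change -1.38, adjusted p = 1.82e-05, 88.98% of reads unique), they were 4 of the 6 genes that fell among 11 tested in a list of 20 mast cell and type 2 genes. On all reads in the gene, intronic ones included, Cpa3 was higher at day 14 (log2 fold change 0.65). The other 2 were Hpgds, a prostaglandin D synthase (log2 fold change -1.10, adjusted p = 0.00447), and Areg, the growth factor amphiregulin (log2 fold change -0.78, adjusted p = 0.0384), and Il4ra, the interleukin 4 receptor, rose (log2 fold change 0.45, adjusted p = 1.58e-05). The listed genes not tested had too few reads. Of 19 alveolar macrophage genes 5 rose and 3 fell, of 23 monocyte and macrophage genes 5 rose and 7 fell, and of 18 neutrophil genes 3 rose and 3 fell. Among the monocyte and macrophage genes that fell were Cd68, a lysosomal protein (log2 fold change -0.63, adjusted p = 0.000959), Emr1, the F4/80 antigen (log2 fold change -0.64, adjusted p = 0.00419), and Fcgr3, an Fc receptor (log2 fold change -0.60, adjusted p = 0.000423, 97.6% of reads unique). Cx3cr1, the fractalkine receptor (log2 fold change -0.84, adjusted p = 0.00136), and C1qc, a complement chain (log2 fold change -0.65, adjusted p = 0.0131), fell as well. Apoe, a lipoprotein component made by macrophages, rose (log2 fold change 1.15, adjusted p = 5.76e-09), and Marco, a scavenger receptor of alveolar macrophages, did not pass (log2 fold change -0.16, adjusted p = 0.481). The summed CPM of the monocyte and macrophage list was 2828 to 3327 in the untreated and 2100 to 2360 in the saline libraries. In the second comparison 5 of its 23 tested genes rose and 3 fell (3 and 4 without water replicate 3).

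Red cell genes were lower at day 14, with 10 of 11 down and none up (median -1.01). Slc4a1, the anion exchanger of red cells, had 13.9, 14.7, 14.3 and 14.01 CPM at day 14 and 51.8, 46.3, 36.9 and 49.3 at day 6 (log2 fold change -1.70, SE 0.10, adjusted p = 2.15e-10). The globin gene Hbb-bt had 945, 1001, 814 and 713 CPM at day 14 and 1892, 1477, 1512 and 1381 at day 6 (log2 fold change -0.85, SE 0.11, adjusted p = 6.36e-05, 35.6% of reads unique). The lungs had been perfused, and how much blood remained in each was not measured. The summed CPM of the red cell list was 8168 to 12166 in the untreated and 13780 to 21574 in the saline libraries. Over all 32 libraries these sums overlapped, at 7917 to 17790 at day 14 and 11735 to 28763 at day 6. Markers of neighbouring tissues were also examined. Cardiac muscle genes summed to 247 to 762 CPM at day 14 and 564 to 657 at day 6, with 1 of 11 lower (Myh7, log2 fold change -1.03, adjusted p = 1.37e-07, 51.5% of reads unique), and fat genes to 80.1 to 121 and 43.2 to 50.6, with all 3 tested higher (Plin4, Adrb3 and Slc7a10). Slc7a10 was also counted above among the alveolar fibroblast genes that rose. Without untreated replicate 4, 5 fat genes were tested and all 5 rose. Adipoq, the defining adipocyte gene, had too few reads to be tested, as had all 10 thyroid and gut markers. Of 6 cartilage genes 3 rose, Cilp among them, and 1 fell, and of 9 mesothelial genes 2 rose and 1 fell. The part of blood, heart, fat or cartilage in the values of other genes was not tested.

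Genes of drug and xenobiotic metabolism were mostly higher at day 14. Of 34 genes tested 27 rose and none fell (median 0.72). Cyp2e1, a cytochrome P450 that oxidises ethanol and small solvents, had 19.9, 24.2, 16 and 20.9 CPM at day 14 and 1.36, 1.98, 1.72 and 3.698 at day 6 (log2 fold change 3.13, SE 0.22, adjusted p = 1.09e-08). Fmo2, the main flavin monooxygenase of lung, had 746, 849.8, 743 and 869 CPM at day 14 and 151, 147, 172 and 168 at day 6 (log2 fold change 2.33, SE 0.075, adjusted p = 1.43e-13). Fmo1 had 335, 343, 330.3 and 406 CPM at day 14 and 154, 157, 163 and 158 at day 6 (log2 fold change 1.16, SE 0.068, adjusted p = 1.53e-10). None of the ranges overlapped. Of 26 antioxidant genes 9 rose and 3 fell. The rises were led by 2 secreted enzymes. Sod3, the extracellular superoxide dismutase, had 179, 222, 205 and 194 CPM at day 14 and 31.1, 36.5, 32.95 and 28.1 at day 6 (log2 fold change 2.64, SE 0.085, adjusted p = 1.43e-13). Gpx3, the plasma glutathione peroxidase, had 264, 285, 247 and 249 CPM at day 14 and 67.04, 60.7, 59.4 and 54.8 at day 6 (log2 fold change 2.11, SE 0.072, adjusted p = 1.91e-13). The intracellular enzymes Cat (log2 fold change -0.11, adjusted p = 0.177) and Nqo1 (log2 fold change -0.26, adjusted p = 0.303) did not pass. In cholesterol synthesis 12 of 24 genes fell and 2 rose (median -0.27), among them Sqle, squalene epoxidase (log2 fold change -0.67, adjusted p = 1.13e-05), the demethylase Cyp51 (log2 fold change -0.64, adjusted p = 1.81e-05) and Srebf2, the transcription factor of the pathway (log2 fold change -0.55, adjusted p = 4.27e-05). Of 26 genes of fatty acid metabolism 7 rose and 2 fell, and Cd36, a fatty acid receptor of capillaries, had 1144, 1065, 1072 and 1119 CPM at day 14 and 565, 572, 602 and 626 at day 6 (log2 fold change 0.90, SE 0.060, adjusted p = 9.64e-10). Of 36 genes of oxidative phosphorylation 4 rose and 2 fell, and without untreated replicate 4 these counts were 11 and 1.

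Genes that respond to hormones, time of day or handling were examined because the ages also differed in euthanasia agent, and the labels used here do not give the hour of collection. Of 21 glucocorticoid-responsive genes 7 rose and 3 fell. Tsc22d3, known as GILZ, had 157, 180.2, 178 and 152 CPM at day 14 and 101, 96.6, 96.1 and 93.5 at day 6 (log2 fold change 0.79, SE 0.066, adjusted p = 2.15e-08). Klf9, a transcription factor, had 64.7, 79.96, 77.2 and 75.6 CPM at day 14 and 26.8, 31.7, 33.6 and 35.3 at day 6 (log2 fold change 1.22, SE 0.087, adjusted p = 2.30e-09). In contrast, Fkbp5, a classical target of the same receptor, had 13.4, 13.3, 11.1 and 14.6 CPM at day 14 and 30.2, 32.2, 25.2 and 24.3 at day 6 (log2 fold change -1.09, SE 0.11, adjusted p = 3.18e-07). Hsd11b1, which regenerates active glucocorticoid from its inactive form, had 172, 169.5, 156 and 167 CPM at day 14 and 55.4, 52.3, 60.1 and 59.4 at day 6 (log2 fold change 1.54, SE 0.064, adjusted p = 1.51e-12). Of 19 clock genes 12 rose and none fell. Hlf, an output factor of the clock, had 83.01, 81.1, 82.9 and 98.3 CPM at day 14 and 32.3, 32.8, 33.3 and 32.9 at day 6 (log2 fold change 1.39, SE 0.073, adjusted p = 3.33e-11), and Dbp, its relative, rose (log2 fold change 0.88, adjusted p = 5.29e-05, 78.96% of reads unique). Arntl, which peaks in antiphase to Dbp in the daily cycle, rose too (log2 fold change 0.46, adjusted p = 0.000524), and Per2 did not pass (log2 fold change 0.014, adjusted p = 0.923). Of 27 immediate early genes 10 rose and 1 fell, and of 25 heat shock and unfolded protein genes 9 rose and 3 fell. Of 20 hypoxia genes 6 rose and 4 fell, where Egln3, an oxygen-sensing hydroxylase, had 4.56, 5.25, 5.19 and 4.29 CPM at day 14 and 19.3, 22.6, 15.98 and 20.3 at day 6 (log2 fold change -2.01, SE 0.14, adjusted p = 9.90e-10). The euthanasia agent cannot be told apart from age in any of these values.

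The same age step was measured in 8 other libraries, in which both ages had been injected. Of 14001 genes tested there 5212 passed (37.2%), 2515 higher at day 14 (18.0%) and 2697 lower (19.3%). Of 13759 genes tested in both comparisons, 2878 passed in both in the same direction, 54.7% of those called in the first and 55.7% of those called in the second, and 103 passed in opposite directions. In all, 83.9% of the genes called in the first had the same sign in the second. The euthanasia agents followed age there too, so this comparison does not separate agent from age.

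**Figure D5:**
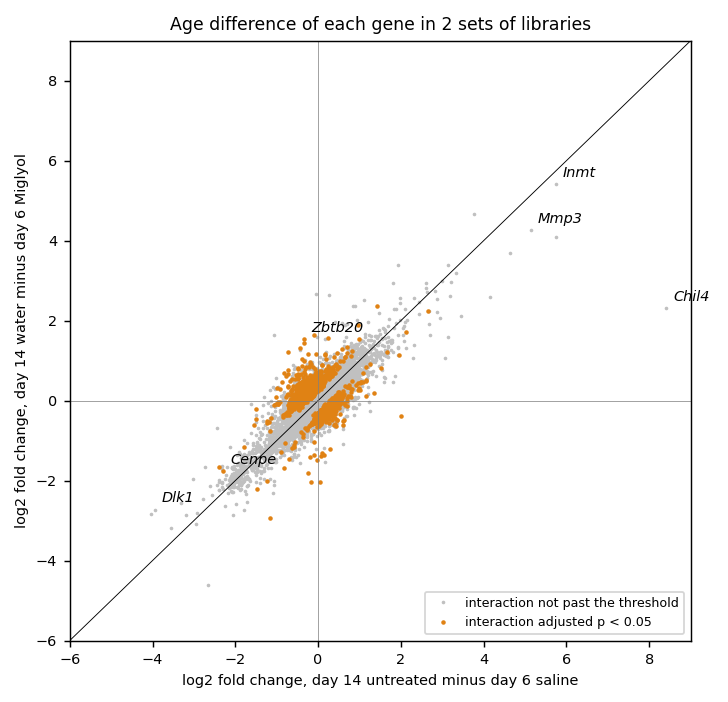
Log2 fold change, day 14 over day 6, of each gene tested in both comparisons. The horizontal axis gives the untreated and saline libraries and the vertical axis the water and Miglyol libraries, with the line of equality. Orange marks those of the plotted genes whose age difference depended on which pair of groups was compared (interaction adjusted p under 0.05). Inmt lies near the line, Chil4 below it and Zbtb20 on the other side of 0.

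The mitosis list fell in 38 of 38 and the replication list in 38 of 38 genes there (medians -1.94 and -1.35). The red cell list fell in 12 of 12 tested, and the B cell list rose in 18 of 18. In the following lists fewer genes rose there than in the first comparison. Of 27 immediate early genes 5 rose and 2 fell (median 0.033, against 0.235 in the first). Of 15 genes that restrain the cycle 5 rose and 2 fell (7 and 2 without water replicate 3). Of 29 type 2 cell genes 2 rose and 8 fell. Among single genes, the log2 fold changes of the second comparison were 5.41 for Inmt, 2.24 for Mgp, 3.39 for Cyp2e1, 1.22 for Eln, -2.73 for Dlk1, -1.68 for Vcan and -1.36 for Fbn2, each past the threshold. Igf2 did not pass there (-1.30, adjusted p = 0.0971), nor did Chil4 (2.31, adjusted p = 0.381), Retnla or Pigr.

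Water replicate 3 stood apart in markers of neighbouring tissues. Its skeletal muscle markers summed to 432.6 CPM, against at most 33.0 in the other 31 libraries, its fat markers to 405.1 against at most 139.7, its cartilage markers to 155.3 against at most 54.05 and its thymus markers to 37.75 against at most 20.87. Without it, the second comparison had 5569 genes past the threshold in place of 5212. Of 36 genes of oxidative phosphorylation 5 fell there with it and 27 without it, and none rose in either. For the cardiac list 1 of 12 fell with it and 9 without it. The mitosis, replication and B cell counts were equal with and without it. Its part in the other values of that comparison was not tested.

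A direct test of the difference between the 2 age effects, over 16 libraries, found it in 1141 of 14210 genes (8.03%). This count rested on single libraries: it was 489 without untreated replicate 1 and 2086 without untreated replicate 4. It lay between 508 and 709 when untreated replicate 2 or 3, saline replicate 2, 3 or 4, Miglyol replicate 1 or 4, or water replicate 2 or 4 was left out. The 5 with the smallest p were Zbtb20, Neurl3, Daam2, Ptpn14 and Gtf2a1. Zbtb20, a zinc finger repressor, had a log2 fold change of -0.34 in the first comparison (adjusted p = 0.110) and 1.53 in the second (interaction adjusted p = 0.00198), and Neurl3, a ubiquitin ligase of lung epithelium, 0.29 (adjusted p = 0.0701) and -1.21 (interaction adjusted p = 0.00198). Among the genes described above, the rise of Eln was smaller in the second comparison (1.22 against 1.66, interaction adjusted p = 0.0296), and the type 1 cell gene Clic5 rose more there (0.98 against 0.53, interaction adjusted p = 0.0135). Of the 76 ribosomal protein genes 60 fell in the second comparison and 5 in the first, and the difference itself passed in 9. Of 29 laminin and integrin genes 15 rose and 3 fell in the second comparison (median 0.35, against -0.040 in the first), and 9 passed the test of the difference, all higher in the second. Of 42 collagens 12 rose and 5 fell in the second comparison (12 and 9 without water replicate 3), and 6 passed that test, all higher. Of 26 antioxidant genes 4 rose and 8 fell there (median -0.12, against 0.16), and 6 passed, all lower. Of 18 neutrophil genes 1 rose and 9 fell there, and 6 passed, all lower. Of 21 type 1 cell genes 16 rose and none fell there, and 6 passed, all higher. The pairs of groups differ in vehicle and in the sexes they hold, and neither was tested alone. All 4 water libraries had Y-linked reads and no high Xist RNA.

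Reads in introns give a second readout of the same 8 libraries. Of 11812 genes tested, 2897 passed (24.5%), 1421 higher (12.0%) and 1476 lower (12.5%) when scaled among themselves. With the scaling of the exon reads the split was 294 higher and 2206 lower. Beside this, the mean intronic share was 12.7% in the untreated and 15.1% in the saline libraries. Untreated replicate 4, at 15.5%, lay within the saline range of 13.9% to 16.1%. Of 4553 genes called on exon reads and tested on introns, 1721 were called in the same direction and 68 in the opposite one. Intronic reads of Inmt rose (log2 fold change 5.74), as did those of Eln (1.35), and those of Dlk1 (-5.91) and Vcan (-1.70) fell. Of 37 mitosis genes with enough intronic reads 34 fell. Of 20 type 1 cell genes tested on introns 2 rose and 6 fell (median -0.17), against 13 up and 2 down of 21 on exons. Hopx and Clic5 had intronic log2 fold changes of -0.16 and -0.18, neither past the threshold.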

How the data were processed

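Polyadenylated RNA of 32 mouse lungs was sequenced in 8 groups of 4 libraries, of which 16 entered the comparisons reported and the others ranges and alternatives. The authors deposited raw counts of reads per gene record for each library (total and unique exon reads, intron reads and all reads in the gene, per the file headers), with 46165 records, of which 18853 had exon reads in at least 1 library. The submitters' processing notes name bcl2fastq 2.0. For the aligner, the genome build and the strand setting: not given in the sources used here. Gene starts in the files lay within 5 kb of those of RefSeq GRCm38.p6 for 97.4% of the 43003 gene IDs matched. Noncoding RNA and immunoglobulin records without exon reads were taken from all reads in the gene.

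Exon reads were filtered with filterByExpr, scaled by TMM and tested with edgeR 4.0.16 (glmQLFit, robust, and glmQLFTest, two-sided) in R 4.3.3, with only the groups compared in each fit and Benjamini-Hochberg adjustment over all genes tested. The interaction of age with the pair of groups was tested over 16 libraries. Named genes passed an adjusted p of 0.05, had a mean of at least 5 CPM, no overlap of the groups and at least 90% unique reads, and were the 12 largest rises and 12 largest falls. To these were added up to 4 members per gene list with the smallest p, defining members that did not pass, and 5 genes of the interaction. Further list members given beside them, and Igf2, Rian, Mirg, Airn, Igkc and Ighm, were chosen after their values were seen. The members and the 66 gene lists (1462 genes, of which 1457 were found) were chosen with earlier results of these data known. Alternatives were other scalings and filters, DESeq2 1.42.0, limma 3.58.1 (voom), unique or all reads, other groups of the same ages, covariates for Xist and the intronic share, and each library left out. The edgeR script was tested on simulated data.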

Additional observations from a re-analysis of the deposited data

Results flagged for a closer look

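Saline replicate 4, the saline library with the most exon reads, stood apart in depth. Its gap to the next was 0.987 of the range of the 4 libraries, above Dixon's critical value for 4 samples. Chance sets apart about 1 in 20 groups that are independent of each other, and genes measured in the same 4 libraries are not. In all, 26 of 362 gene groups (181 genes in 2 groups) and 4 of 130 list groups were set apart. The chi-square of exon reads per gene was 7.21 to 9.30 between untreated replicate 4 and the other untreated libraries. It was 2.92 to 4.63 among untreated replicates 1 to 3 and 2.38 to 6.96 among the saline libraries. Among the untreated libraries, 1 library stood apart for Acta2 (gap 0.834 of the range), Adh1 (0.876), Adrb3 (0.844), Arntl (0.900), Cd2 (0.858), Cd68 (0.917), Cdc25b (0.912), Cyp51 (0.913), Dbp (0.837), Fbn1 (0.838), Hlf (0.891), Hpgds (0.917), Igf2bp3 (0.846), Lox (0.847), Pcna (0.879), Pdgfrb (0.831), Rsad2 (0.841) and Uhrf1 (0.856). Among the saline libraries this held for Fcgr3 (0.869), Gpihbp1 (0.980), Mgp (0.933), Mmp3 (0.936), Nqo1 (0.895), Plin4 (0.964), Prelp (0.894) and Sqle (0.831). For the mean log2 CPM of a list, 1 untreated library stood apart for the adventitial fibroblast (0.922) and mesothelial (0.882) lists, and 1 saline library for the lung transcription factors (0.850) and the dendritic cell and class II list (0.850).

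The age difference depended on the pair of groups in 1141 genes by edgeR's interaction test, among them 24 genes of the report. In log2 units, the age difference of the water and Miglyol libraries exceeded that of the untreated and saline libraries for Zbtb20 (1.89), Casc5 (0.744), Rgs5 (0.691), Col6a4 (0.654), Ptpn14 (0.620), Cenpe (0.546), Daam2 (0.528), Nrp2 (0.492), Per2 (0.487), Clic5 (0.460), Igf2r (0.447), Fbn1 (0.398), Lama5 (0.391), Ptch1 (0.385) and Epas1 (0.331), where a negative difference closer to 0 counts as the larger. It was lower for Neurl3 (-1.49), Cyp26b1 (-1.15), Mfap5 (-0.657), Gtf2a1 (-0.559), Sftpc (-0.478), Eln (-0.426), Sod3 (-0.402), Gpx3 (-0.384) and Pcna (-0.257).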

How the results depend on the processing

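The count of 5271 genes stayed within 1.5 times under 16 of 18 alternatives that kept all libraries. It was 734 (287 higher, 447 lower) when a 1.5-fold change was required and 8842 (4329 and 4513) with all groups of each age compared. It ranged from 4451 to 5752 with 1 library left out, from 4190 to 5569 in the second comparison (5212) and from 2262 to 3267 for intronic reads (2897), whose higher genes numbered 294 in place of 1421 under the exon scaling. The count of 1141 genes with a different age effect ranged from 489 to 2086. It was 489, 540, 526 and 2086 without untreated replicates 1 to 4, 697, 709 and 523 without saline replicates 2, 3 and 4, 616 and 517 without Miglyol replicates 1 and 4, and 573 and 508 without water replicates 2 and 4; fewer libraries entered each of these fits.

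Of 181 genes of the text, 165 passed, 156 kept their call in all 8 fits that left out 1 library, and 99 in every alternative. Some log2 fold changes reversed, and the cause was not tested. With Miglyol in place of saline these were Abca3 (0.071), Fbn1 (0.24), Gtf2a1 (-0.044), Notch3 (0.093), Ptpn14 (0.054), Sftpc (-0.051) and Zbtb20 (1.46). With all groups of each age they were Cat (0.10), Gins4 (-0.13), Gtf2a1 (-0.00053), Neurl3 (-0.59), Notch3 (0.0028), Rgs5 (0.026) and Zbtb20 (1.27). With daily saline in place of untreated they were Cat (0.18) and Per2 (-0.29), with water C1qc (0.040), Col11a1 (0.58) and Neurl3 (-0.60), and with all reads in the gene Cpa3 (0.65) and Zbtb20 (0.26).

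Whether the replicate numbers pair the samples is not known. Deviations of same-numbered libraries correlated at -0.075, 0.028, 0.041 and 0.23 in the first comparison and 0.17, 0.16, 0.11 and -0.11 in the second. For libraries of different numbers the correlations lay between -0.16 and 0.21 in the first and between -0.30 and 0.28 in the second. Untreated and saline replicate 4 had the highest value of the first comparison (0.23). With a replicate block the counts were 5400, 4896 (second comparison), 809 (difference of age effects) and 2865 (intronic reads). Depth limits the genes of the lowest CPM, such as Mmp3 at day 6, where a level rests on few reads.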
